A study of Mus musculus with 75 samples.

Results

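Unconventional myosins are motors that walk along actin filaments without assembling into thick filaments, and 9 of them that have been described in hair cells were followed here across 5 groups of mouse cochlear cells: Myo7a, Myo6, Myo3a, Myo3b, Myo15, Myo1c, Myo1h, Myo5b and Myo10. The members were taken by name, and all 9 were found among the 55291 genes of the count table. Of these, 7 passed the filter on low counts, which kept 11443 genes in all. Myo3b and Myo5b did not pass, so they are described but not counted.

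The study asked whether supporting cells (SCs) of the adult cochlea, made to express the transcription factors Atoh1 and Ikzf2, turn into outer hair cells (OHCs). Single-cell RNA-Seq libraries were made from 75 hand-picked Tdtomato+ cells of mice whose strain is given as C57BL/6. The 17 WT_P30 OHCs came from wild-type cochleae at postnatal day 30, where a tamoxifen-dependent Cre in the Slc26a5 (Prestin) gene switched on the Ai9 Tdtomato reporter. The 16 WT_P60 SCs came from wild-type cochleae at day 60. They were labeled through the Ai9 reporter and Fgfr3-iCreER, which acts mainly in pillar and Deiters' cells. The other 42 cells came from Fgfr3-Atoh1-Ikzf2-DTR mice at day 60. They carried Fgfr3-iCreER, Cre-dependent Atoh1 and Ikzf2 transgenes and a diphtheria toxin receptor in the Slc26a5 gene. Tamoxifen was given to the mice of all 5 groups. The Fgfr3-Atoh1-Ikzf2-DTR mice later received diphtheria toxin as well, which kills their own OHCs. The authors divided the 42 cells by Myo7a and Prestin into 11 OHC-like cells (labeled as having both), 16 nascent HCs (Myo7a without Prestin) and 15 SCs failing to become HCs (neither). The Myo7a differences among these 3 groups therefore follow from how the groups were made. Not every cell kept to its label: nascent HCs 1, 2 and 6 had 8.90, 14.9 and 7.63 CPM of Slc26a5 (100, 122 and 87 reads), where OHC-like cells ran from 16.2 to 178 CPM. Myo7a was present in 3 of the SCs that failed to convert.

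No animal is named for any cell, so a group counts as 1 sample. No test between groups was made, and all SDs and ranges are over cells. The wild-type groups also differ in age, and each fills a series of library numbers of its own, so age and library series cannot be told apart from cell type there. The 42 induced cells came from 5 further series, called A to E. Comparisons of induced with wild-type cells therefore also differ in transgenes, toxin treatment and library series, and those with WT_P30 OHCs in age too. These cannot be told apart from cell type there either. Total counts on genes per cell ran from 4264780 to 22934062 and the number of genes at 1 CPM or more from 3348 to 9654. OHC-like cell 4 had the lowest number of genes. The median number was 4777 in OHCs, 6872 in WT_P60 SCs, 8488 in OHC-like cells, 8066 in nascent HCs and 6977 in SCs failing to become HCs. The part of this difference in the shares of cells with a given myosin was not tested. Levels are CPM, counts over library size on a common scale, with library sizes adjusted by TMM, a method that sets the bulk of genes equal between cells. Atoh1 averaged 5593 ± 4002 CPM in OHC-like cells, 5034 ± 3600 CPM in nascent HCs and 5563 ± 7499 CPM in SCs failing to become HCs, and 0.519 ± 1.47 CPM in WT_P60 SCs. The OHC markers Ocm, Slc26a5, Chrna9 and Chrna10 were found in WT_P30 OHCs and all 7 SC markers (Sox2, Sox10, Fgfr3, Gjb2, Gjb6, Prox1, Bace2) in WT_P60 SCs. The 4 macrophage markers (Ptprc, C1qa, C1qb, Cx3cr1) summed to at most 38.6 CPM in any cell, and globin reached 2337 CPM in an OHC-like cell. Other lists differed between groups. The summed endothelial markers (Pecam1, Cldn5, Cdh5) had a median of 20.3 CPM in WT_P60 SCs and 0 in the other groups. In WT_P60 SCs, Pecam1 averaged 79.7 CPM and Cldn5 0.0957 CPM, and Cdh5 had no read. The neuronal markers (Tubb3, Nefl, Snap25) had medians of 196, 151 and 224 CPM in OHCs, OHC-like cells and nascent HCs and at most 0.516 elsewhere. In OHCs, Snap25 averaged 218 CPM, Nefl 30.2 and Tubb3 11.8 CPM. The fibroblast markers (Col1a1, Dcn, Pdgfra) had a median of 174 CPM in OHCs and 0 elsewhere. That sum in OHCs was nearly all Pdgfra, which averaged 170 CPM, while Col1a1 averaged 0.0971 CPM and Dcn had no read. The part of these lists in the results was not tested.

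In a hair cell, stereocilia are fingers of parallel actin in rows of graded height, and mechanotransduction channels sit at the tips of the shorter rows. Myosins carry elongation factors to those tips, hold the tip links under tension and anchor the membrane at the stereocilia base. Mutations in Myo7a, Myo6, Myo3a and Myo15 cause deafness. Atoh1 is a basic helix-loop-helix factor, a family that binds E-boxes, the letters CANNTG.

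Myo15 was detected in 5 of the 27 induced hair cells. Myo7a was detected in all 27, which follows from how these cells were labeled, so only the Myo15 share is a result. The sequences upstream of the first start sites of both genes are printed. Each is 200 bases, from 250 to 51 bases before the RefSeq start (GRCm38.p6), 5′ to 3′ on the gene's strand, with CANNTG in capitals. The Myo7a stretch is chr7:98119544-98119743 on the minus strand, and the Myo15 stretch is chr11:60469089-60469288 on the plus strand.
Myo7a: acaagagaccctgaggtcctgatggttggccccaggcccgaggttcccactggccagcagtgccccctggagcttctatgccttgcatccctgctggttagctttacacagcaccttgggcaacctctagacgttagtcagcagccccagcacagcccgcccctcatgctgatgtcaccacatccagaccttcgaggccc
Myo15: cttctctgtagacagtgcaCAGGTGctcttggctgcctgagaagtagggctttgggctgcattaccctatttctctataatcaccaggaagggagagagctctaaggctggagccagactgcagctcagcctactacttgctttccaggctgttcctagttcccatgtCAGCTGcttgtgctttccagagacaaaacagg
The Myo7a stretch held 0 E-boxes. The Myo15 stretch held 2, CAGGTG with its first base at position -231 from the start and a second one, CAGCTG, at position -82. A further RefSeq start of Myo7a had 2, which were the same letters both times. An E-box reads as an E-box on both strands, and 59.0% of 32851 such stretches of all genes held at least 1. The form at position -82 stood in 10.3% of them. A match is a run of letters and not a binding site.

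Myo7a (GRCm38 chromosome 7, 98051060 to 98119524, minus strand in GENCODE M21), the motor at the upper end of the tip link, had no read in any of the 16 WT_P60 SCs. In the 17 WT_P30 OHCs it ran from 209 to 1024 CPM with a median of 527 and a mean of 561 ± 225 (SD, n = 17 cells). In the 11 OHC-like cells it was 50.9, 747, 523, 4371, 969, 789, 655, 415, 679, 749 and 508 CPM in cells 1 to 11. All but cells 1 and 4 lay inside the range of the OHCs. Their mean of 951 ± 1160 CPM fell to 608 ± 253 without cell 4, which held 41.8% of the group's summed level. Cell 4 is the cell with the fewest genes. The 16 nascent HCs ran from 96.2 to 1167 CPM with a median of 526 and a mean of 508 ± 278. Against a floor of 3 counts per cell in WT_P60 SCs, the mean was at least 1313-fold higher in OHCs. The same bound was at least 2224-fold for OHC-like cells, and it was at least 1189-fold for nascent HCs. Without OHC-like cell 4, the log2 ratio of OHC-like cells to WT_P60 SCs moved from 11.12 to 10.48, and that to OHCs from 0.76 to 0.12.

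Among the 15 SCs failing to become HCs, chosen for lacking Myo7a, 3 still had it at 1 CPM or more, at 28.5, 2.29 and 19.2 CPM. The other 12 held at most 1 read each. The group mean was 3.37 ± 8.53 CPM. Leaving out the highest of these cells, cell 2, moved the log2 ratio to the floor of WT_P60 SCs from 2.98 to 1.88, under the 4-fold mark.

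Myo6 (chromosome 9, 80165031 to 80311729, plus strand), which walks toward the pointed end of actin and anchors the stereocilia base, was read in all 75 cells. It ran from 990 to 2661 CPM in OHCs (mean 1788 ± 517), from 687 to 2290 in OHC-like cells (1158 ± 514), from 387 to 2631 in nascent HCs (1058 ± 590), from 223 to 1634 in WT_P60 SCs (658 ± 341) and from 68.3 to 1102 in SCs failing to become HCs (467 ± 318). That is the order of the means, and the ranges of neighbours overlapped throughout. The largest step among hair cells, OHCs over OHC-like cells, was 1.54-fold, and 5 of the 11 OHC-like cells lay below the lowest OHC. OHCs were 2.72-fold above WT_P60 SCs, and 10 of 17 OHCs exceeded the highest SC. Myo6 is thus an SC transcript as well as a hair cell transcript in these libraries, unlike Myo7a. Both OHC-like cells of series E, at 1836 and 2290 CPM, were above the other 9, which ended at 1423 CPM.

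**Figure D1:**
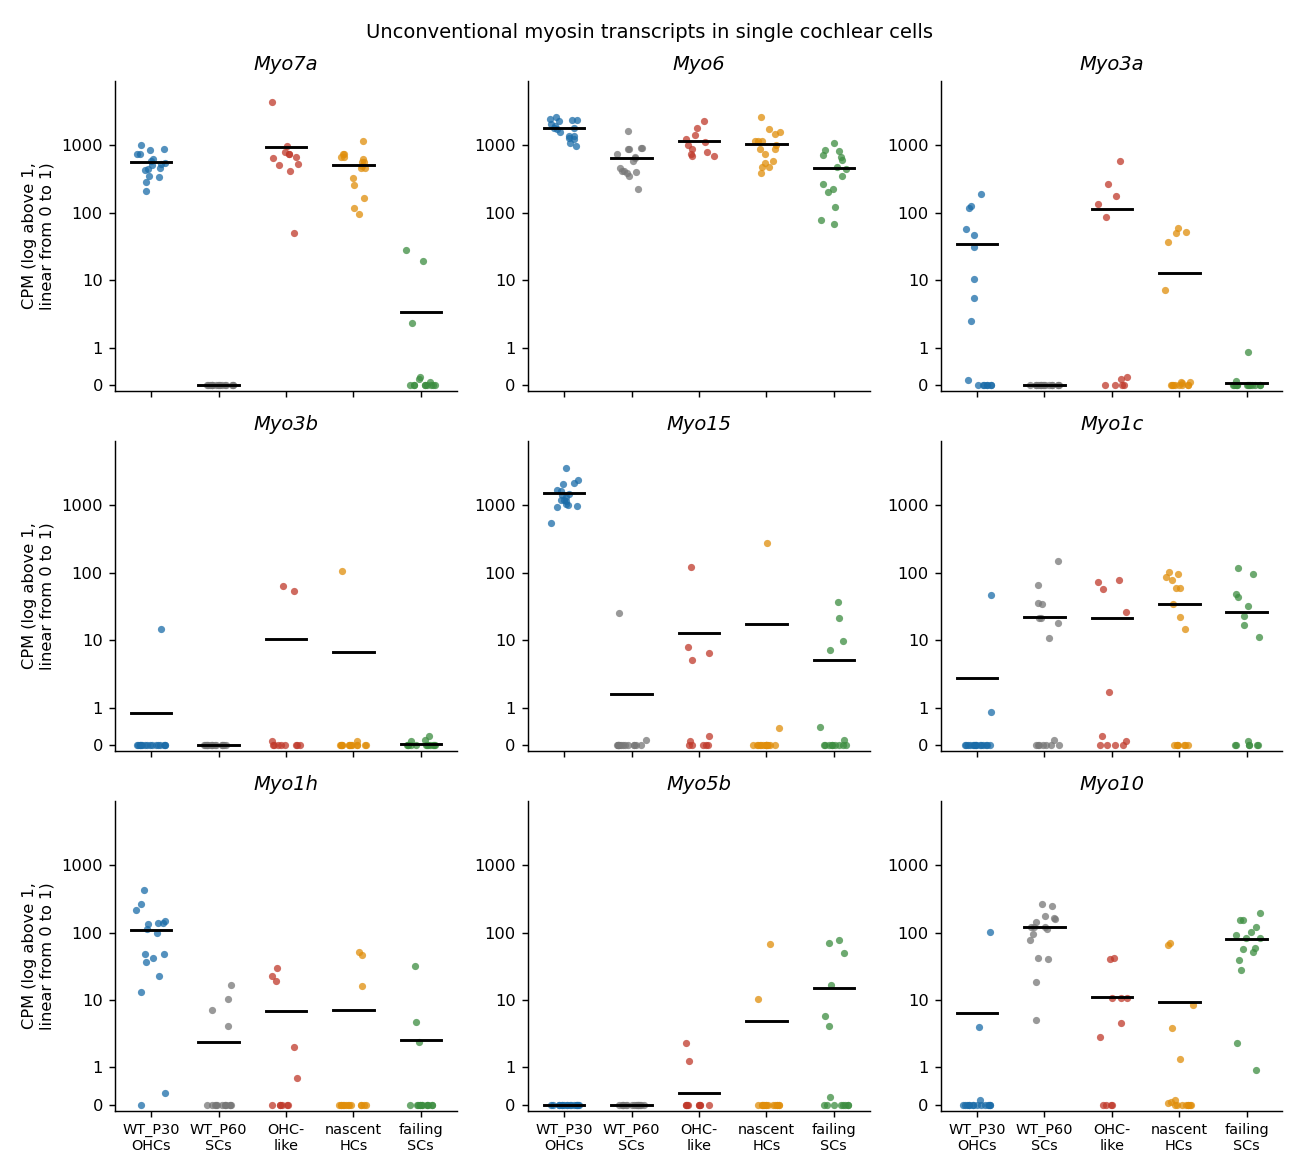
Level of each myosin in every cell, in CPM on an axis that is linear from 0 to 1 and logarithmic above; points are cells and black lines are group means. Myo7a is present in every induced hair cell, from 50.9 to 4371 CPM, which follows from how these cells were labeled. Myo15 sits between 551 and 3602 CPM in OHCs and at most at 273 CPM elsewhere.

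Myo15 (chromosome 11, 60469339 to 60528369, plus strand), which carries whirlin and Eps8 to stereocilia tips and is needed for elongation, ran from 551 to 3602 CPM in the OHCs with a median of 1307 and a mean of 1518 ± 717. In WT_P60 SCs it was at 25.5 CPM in cell 12 and at 0.144 CPM in cell 6, with no read in the other 14. OHC-like cells had 5.05, 6.44, 7.78 and 122 CPM in cells 1, 3, 5 and 11, under 1 CPM in cells 7 and 10, and no read in the other 5. Nascent HC 2 had 273 CPM, nascent HC 8 had 0.462 CPM and 14 nascent HCs had no read. All 11 OHC-like cells lay below the lowest OHC, and the mean was 118-fold lower, at 12.9 ± 36.5 CPM. OHC-like cell 11 held 86.2% of the group's summed level, and without it the log2 ratio to OHCs moved from -6.88 to -9.59. Of the 27 induced hair cells, 19 had no Myo15 read. All 27 had Myo7a, by which they were labeled. The OHC mean was 947-fold above that of WT_P60 SCs, a log2 ratio of 9.89. Without WT_P60 SC 12 it became at least 11.79, since the other SCs averaged 0.00959 CPM, under the floor.

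The induced groups passed 4-fold over WT_P60 SCs for Myo15 through single cells. The log2 ratio for OHC-like cells, 3.01, was 0.29 without OHC-like cell 11. That for nascent HCs, 3.41, was -2.53 or lower without nascent HC 2, since the other nascent HCs averaged 0.0308 CPM, under the floor. SCs failing to become HCs averaged 5.05 ± 10.7 CPM, with 9.72, 21.2, 37.1 and 7.16 CPM in cells 3, 6, 10 and 11. OHC-like cell 11 alone among its group was above 37.1 CPM.

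**Figure D2:**
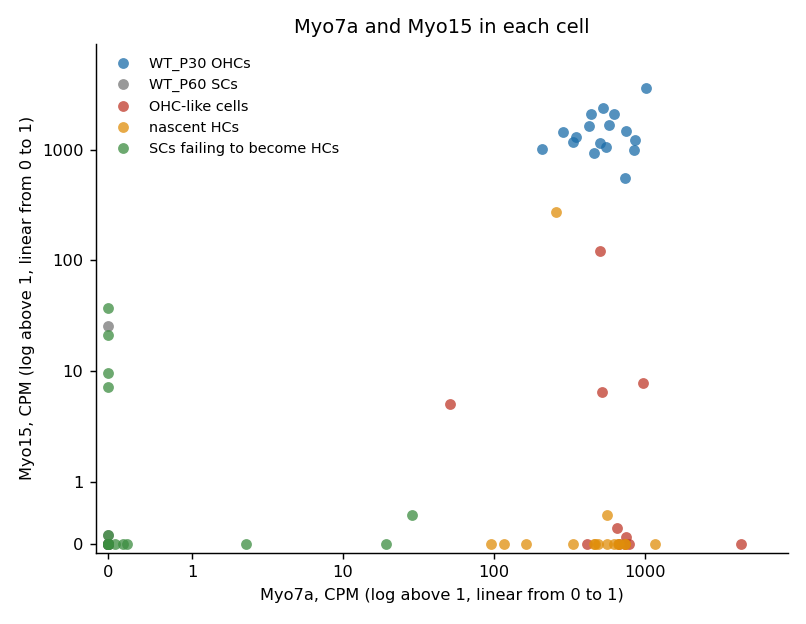
Myo15 against Myo7a in each of the 75 cells, both in CPM on axes that are linear from 0 to 1 and logarithmic above. OHCs sit high on both axes, and the 27 induced hair cells run from 50.9 to 4371 CPM of Myo7a, with 19 at 0 on the Myo15 axis.

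OHC-like cell 11 and nascent HC 2, the only induced hair cells with 100 CPM or more of Myo15, were also the only ones with that much Pou4f3, a transcription factor that hair cells need for survival. Pou4f3 was at 708 and 533 CPM in them and at most 1.38 CPM in the other 25, against 629 ± 295 CPM in OHCs. Pou4f3 was singled out here after its values were seen. Both cells belong to series E, which holds 6 of the 27 induced hair cells, and the part of the series in this was not tested. Nascent HC 2 is also one of the 3 nascent HCs with Slc26a5, at 14.9 CPM. The inner hair cell markers Slc17a8 and Slc7a14 were at 41.9 and 29.4 CPM in nascent HC 2 and had no read in OHC-like cell 11. In OHCs, Slc7a14 had no read, while Slc17a8 averaged 7.21 CPM and the sum of both reached 108 CPM in a cell.

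The class III myosins carry espins to stereocilia tips, where they help set length. Myo3a (chromosome 2, 22227503 to 22618252, plus strand) had no read in WT_P60 SCs and was detected, at 1 CPM or more, in 9 of 17 OHCs, where it reached 193 CPM (mean 34.8 ± 57.7). OHC-like cells fell apart into high and low cells. Cells 2, 3, 9, 10 and 11 had 134, 87.5, 177, 266 and 579 CPM, and the other 6 had at most 0.227 CPM. Nascent HCs 1, 2, 5, 8 and 12 had 7.21, 60.3, 36.9, 49.3 and 51.8 CPM, and the other 11 had at most 0.0931 CPM. All 5 OHC-like cells with the transcript were above the highest nascent HC. The mean was 8.79-fold higher in OHC-like cells (113 ± 179 CPM) than in nascent HCs (12.9 ± 22.4 CPM), and the log2 ratio of 3.14 became 2.37 without OHC-like cell 11. By the median of cells, both groups were at or under the floor. Within series B, D and E the mean was higher in OHC-like cells, at 44.4, 58.9 and 422 CPM against 15.6, 13.0 and 15.1 CPM, and in series A the single cell of each group had no read. In SCs failing to become HCs it was at most 0.893 CPM.

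Myo3b (chromosome 2, 70039126 to 70429198, plus strand), a close relative of Myo3a, was detected in only 4 of the 75 cells. These were WT_P30 OHC 13 at 14.6 CPM, OHC-like cells 2 and 11 at 62.6 and 53.5 CPM and nascent HC 2 at 105 CPM. Without nascent HC 2, the mean of nascent HCs moved from 6.54 to 0.00769 CPM. Each of the 3 induced cells also had Myo3a, and WT_P30 OHC 13 had the highest Myo3a of the OHCs. Its exons share 70 bases with Gm13631 on the same strand, which had no read in nascent HC 2's group and 53 reads over all OHC-like cells.

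**Figure D3:**
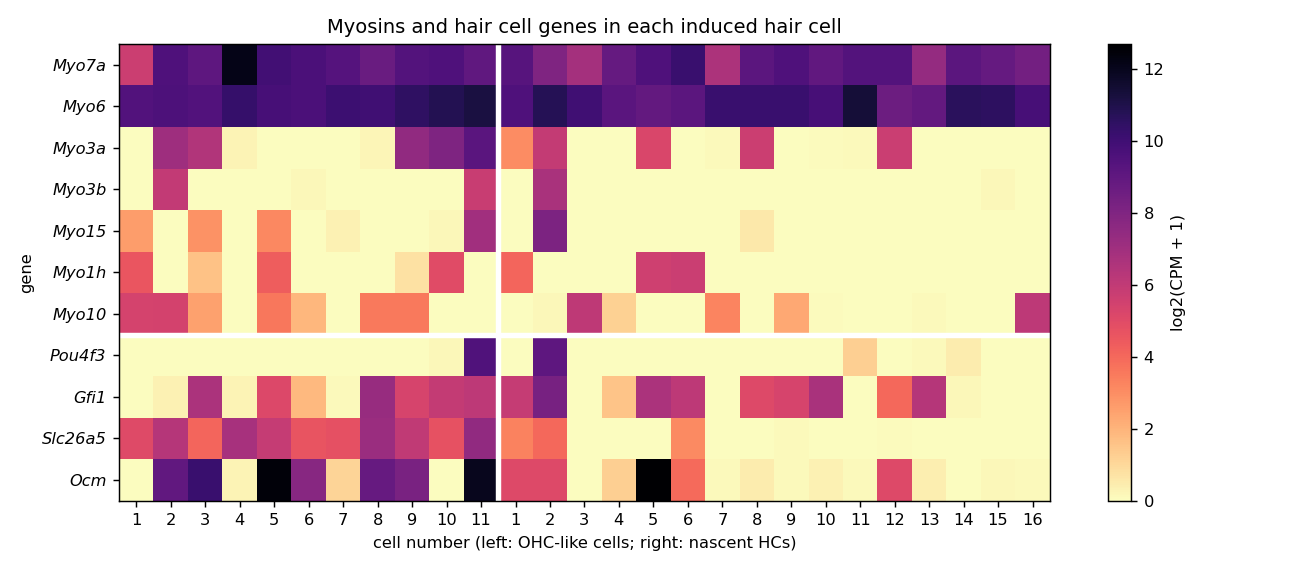
Level, as log2(CPM + 1), of 7 myosins and of the hair cell genes Pou4f3, Gfi1, Slc26a5 and Ocm in each of the 11 OHC-like cells (left) and 16 nascent HCs (right). Myo7a and Myo6 are dark in every column, while Myo15, Myo3b and Pou4f3 are dark together in OHC-like cell 11 and nascent HC 2. OHC-like cell 2 has Myo3b, at 62.6 CPM, without a read of Myo15 or Pou4f3.

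The class I myosins Myo1c and Myo1h are short single-headed motors that bind membranes, and Myo1c has been studied as an adaptation motor of the transduction apparatus. Myo1h (chromosome 5, 114289166 to 114365357, plus strand) was detected in 15 of 17 OHCs, from 0 to 427 CPM with a median of 98.3 and a mean of 111 ± 111. It averaged 6.81 ± 11.4 CPM in OHC-like cells, where 4 of 11 had it and the highest had 30.4 CPM. The other means were 7.12 ± 16.8 CPM in nascent HCs, 2.37 ± 4.86 CPM in WT_P60 SCs and 2.59 ± 8.18 CPM in SCs failing to become HCs. These 4 groups overlapped broadly, and no cell of them passed 51.3 CPM. Myo1h was 47.0-fold higher in OHCs than in WT_P60 SCs and 16.3-fold lower in OHC-like cells than in OHCs. The log2 ratio to WT_P60 SCs moved from 5.55 to 6.29 without WT_P60 SC 9, and that of OHC-like cells to OHCs from -4.03 to -4.65 without OHC-like cell 10. The exons of Myo1h share 1530 bases with Kctd10 on the opposite strand, and the strand setting of the counting is not given in the sources used here, so reads of the 2 genes may not be separated. Kctd10 averaged 14.0 ± 29.2 CPM in OHCs and 21.1 ± 22.6 CPM in WT_P60 SCs, and its part in the Myo1h counts was not tested.

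Myo1c (chromosome 11, 75650504 to 75673910, plus strand) showed the reverse. It was detected in 1 of 17 OHCs (46.5 CPM in cell 9), 8 of 16 WT_P60 SCs, 5 of 11 OHC-like cells, 9 of 16 nascent HCs and, among SCs failing to become HCs, 8 of 15. The means of the last 4 groups were 22.2 ± 38.6, 21.5 ± 32.1, 34.6 ± 39.5 and 25.8 ± 36.9 CPM, against 2.79 ± 11.3 CPM in OHCs. OHCs were 7.96-fold below WT_P60 SCs and OHC-like cells 7.73-fold above OHCs. Without WT_P30 OHC 9, the log2 ratios moved from -2.99 to -5.64 or lower and from 2.95 to 5.60 or higher. These are bounds set by the floor, since the other OHCs averaged 0.0546 CPM. By the median of cells, OHC-like cells and OHCs were both at or under the floor.

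Myo10 and Myo5b are motors of other cell compartments, the first carrying cargo to filopodia tips and the second moving recycling endosomes with Rab11. Myo10 (chromosome 15, 25622525 to 25813673, plus strand) was the SC member of the list. It was detected in all 16 WT_P60 SCs, from 5.08 to 264 CPM with a mean of 120 ± 74.5, and in 14 of 15 SCs failing to become HCs, from 0.942 to 199 CPM with a mean of 81.8 ± 57.5. In OHCs it was at 104 and 4.05 CPM in cell 15 and one other cell and at most 0.130 CPM in the rest. OHC-like cells ran from 0 to 42.7 CPM (mean 11.2 ± 15.7) and nascent HCs from 0 to 69.3 CPM (mean 9.28 ± 22.7). Relative to WT_P60 SCs the mean was 18.9-fold lower in OHCs, 10.7-fold lower in OHC-like cells, 12.9-fold lower in nascent HCs and 1.46-fold lower in SCs failing to become HCs. The log2 ratio for OHCs moved from -4.24 to -8.06 or lower without WT_P30 OHC 15, since the other OHCs averaged 0.261 CPM, under the floor. That for nascent HCs moved from -3.69 to -4.50 without nascent HC 16. The 2 SC groups overlapped over most of their range. The summed level of the 7 SC markers moved with it: it ran from 2092 to 9539 CPM in WT_P60 SCs, from 276 to 7032 in SCs that failed to convert, from 179 to 956 in nascent HCs, from 161 to 914 in OHC-like cells and from 0 to 214 in OHCs, where 3 of the 7 had no read. Their part in the Myo10 result was not tested.

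Myo5b (chromosome 18, 74440936 to 74771493, plus strand) had no read in any of the 33 wild-type cells. It was detected in 2 of 11 OHC-like cells (2.30 and 1.26 CPM), 2 of 16 nascent HCs (66.9 and 10.2 CPM) and 6 of 15 SCs failing to become HCs, where it reached 77.2 CPM (mean 14.9 ± 27.0). A share of 0 of 17 OHCs allows up to 19.5% by the exact Clopper-Pearson 95% interval, and 0 of 16 SCs up to 20.6%. The mean in SCs failing to become HCs was at least 34.8-fold over WT_P60 SCs. These intervals cover counting error only.

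**Figure D4:**
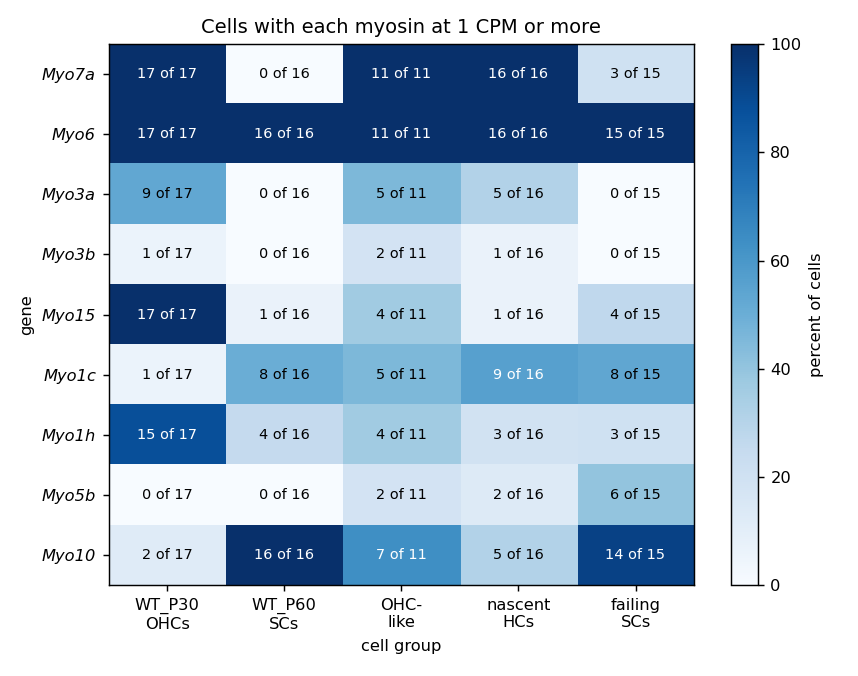
Number and percent of cells in each group with each myosin at 1 CPM or more; darker blue is a higher percent. Myo6 is full in all 5 columns, Myo15 is full in OHCs alone, and Myo10 is high in both SC columns.

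Because CPM favours long transcripts, genes were compared with each other as TPM, which also divides by the GENCODE M21 exon length. In OHCs the level per length was 337 ± 90.5 TPM for Myo6, 269 ± 118 for Myo15, 149 ± 58.9 for Myo7a, 40.9 ± 39.8 for Myo1h and 9.99 ± 17.4 for Myo3a. In OHC-like cells it was 198 ± 130 TPM for Myo6, 161 ± 68.8 for Myo7a, 34.4 ± 59.3 for Myo3a and 2.64 ± 7.66 for Myo15. Myo15 was therefore above Myo7a by the means in OHCs and far below it in OHC-like cells. In WT_P60 SCs, Myo6 (144 ± 74.5 TPM) and Myo10 (31.4 ± 19.9 TPM) led.

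Counted over the 7 filtered members, 4 were over 4-fold higher in OHCs than in WT_P60 SCs (Myo7a, Myo3a, Myo15, Myo1h), where 13.3% of all filtered genes were, and 2 were lower (Myo1c, Myo10), where 21.2% were. In OHC-like cells against WT_P60 SCs, 3 were higher (Myo7a, Myo3a, Myo15; background 18.3%) and 1 lower (Myo10; background 10.5%). Nascent HCs gave the same counts, 3 higher (background 17.7%) and 1 lower (background 8.73%). SCs failing to become HCs gave 1 higher (Myo7a; background 14.9%) and 0 lower (background 7.31%). Against OHCs, OHC-like cells had 1 member higher (Myo1c; background 24.1%) and 2 lower (Myo15, Myo1h; background 7.77%). Against nascent HCs they had 1 higher (Myo3a; background 3.35%) and 0 lower (background 5.03%). The comparisons with WT_P60 SCs share those cells. Myo7a counts in the induced groups restate how the groups were made.

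**Figure D5:**
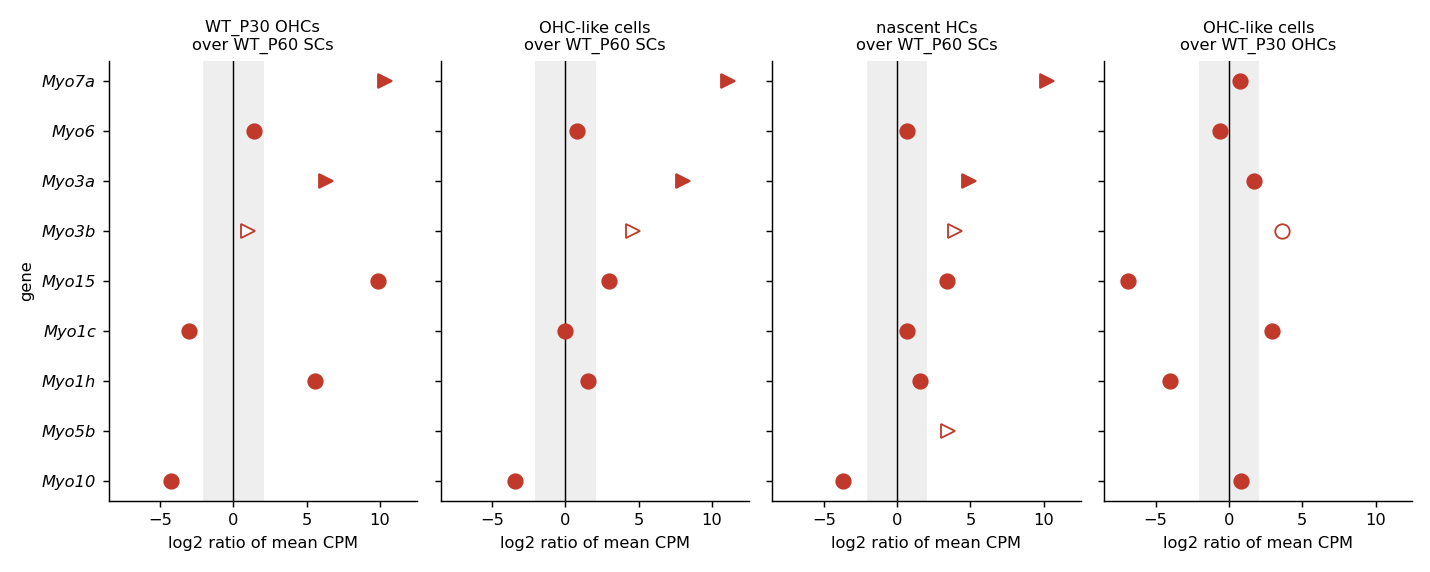
Log2 ratio of mean CPM of each myosin in 4 comparisons; the grey band is the range within 4-fold, triangles are lower bounds against a group with no read, open symbols are genes that did not pass the filter, and a gene at or under the floor in both groups has no symbol. Myo15 and Myo1h are right of the band in OHCs over SCs and left of it, at -6.88 and -4.03, in OHC-like cells over OHCs.

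Partners of these motors were listed by the myosin they work with. Of 19 partners that passed the filter, 8 were over 4-fold higher and 1 lower when OHC-like cells were set against WT_P60 SCs, where 18.3% and 10.5% of all filtered genes were. Their median log2 ratio was 1.06, against 0.31 for all filtered genes. Nascent HCs had 9 higher and 0 lower (background 17.7% and 8.73%). SCs failing to become HCs had 3 higher, Whrn, Gpsm2 and Espn, and 1 lower (background 14.9% and 7.31%). The cargo of the class III myosins, Espn, had no read in WT_P60 SCs and averaged 644 ± 321 CPM in OHCs, 815 ± 327 CPM in OHC-like cells, 567 ± 213 CPM in nascent HCs and 309 ± 409 CPM in SCs failing to become HCs. Espnl averaged 61.2 CPM in OHC-like cells against 2.50 CPM in WT_P60 SCs. For Myo7a, the tip link cadherin Cdh23 averaged 95.4 CPM in OHC-like cells against 3.59 CPM in WT_P60 SCs, and Twf2, an actin-capping partner, 119 against 16.5 CPM. For Myo15, the cargo Whrn averaged 10.2 CPM in OHC-like cells with no read in WT_P60 SCs, Gpsm2 29.4 against 1.75 CPM, and Eps8 11.9 against 59.0 CPM. Whrn and Gpsm2 each exceeded the highest WT_P60 SC in 3 of 11 OHC-like cells, and Espn did in all 11. For Myo6, the adaptor Gipc3 averaged 115 CPM with no read in WT_P60 SCs, and Calcoco1 145 against 35.7 CPM.

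Against OHCs, 2 of the 19 partners were over 4-fold higher in OHC-like cells (Calcoco1 and Rab8a) and 2 lower (Gpsm2 and Otof), where 24.1% and 7.77% of all filtered genes were, with a median log2 ratio of 0.25 against 0.56. Gpsm2, which marks the tips of the tallest row, averaged 158 CPM in OHCs. Otof, the calcium sensor of hair cell exocytosis, averaged 443 ± 439 CPM in OHCs and 0.143 ± 0.475 CPM in OHC-like cells. Rab8a averaged 148 CPM in OHC-like cells and 20.5 CPM in OHCs.

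Of 15 other unconventional myosins, 7 passed the filter. In OHC-like cells against WT_P60 SCs, 4 were over 4-fold higher and 0 lower: Myo5a (14.9 CPM against no read), Myo9b (54.8 against 13.6), Myo18a (37.8 against 6.53) and Myo19 (26.9 against no read). Of all filtered genes, 18.3% were that much higher. The other induced groups also had 4 of the 7 over 4-fold higher than WT_P60 SCs: Myo1d, Myo5a, Myo18a and Myo19 in nascent HCs (background 17.7%), and Myo1d, Myo5a, Myo9b and Myo18a in SCs failing to become HCs (background 14.9%). Against OHCs, Myo19, a mitochondrial motor, was over 4-fold higher in OHC-like cells (6.46 CPM in OHCs, background 24.1%). Myo1d was over 4-fold lower (0.745 against 49.1 CPM, background 7.77%), and the other 5 were neither. Of 10 conventional myosin and light chain genes, 9 passed. Relative to WT_P60 SCs, 2 of these 9 were over 4-fold higher in OHC-like cells and 0 lower (background 18.3% and 10.5%). Myh9 (62.1 against 6.01 CPM), a heavy chain of non-muscle myosin II, was among them. It was also over 4-fold higher in nascent HCs (39.4 CPM) and SCs failing to become HCs (35.7 CPM). Against OHCs, 2 of the 9 were over 4-fold higher in OHC-like cells and 0 lower (background 24.1% and 7.77%). These 2 were Myh9 and Myh14, which averaged 8.68 and 8.79 CPM in OHCs.

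The genes whose ranks over the 75 cells were most like each member are given as a description, since cells share groups, libraries and depth. For Myo7a these were Chrna9 (Spearman's rho 0.825), a subunit of the efferent acetylcholine receptor, the calcium buffer Calb2 (0.796) and Lrrc10b (0.786). For Myo15 they were Defb25 (0.836), Ap3b2 (0.830) and Chrna10 (0.825), the partner subunit of Chrna9. Chrna9 averaged 742 CPM in OHC-like cells and 609 CPM in OHCs, whereas Chrna10 averaged 22.4 and 579 CPM. Myo6 was most like Strc (0.716), Pou4f3 (0.708) and Plce1 (0.699), and Myo3a most like Ttc24 (0.703), Calb1 (0.682) and Pdzrn3 (0.653). Myo10 was most like Bace2 (0.794), one of the SC markers, Slc44a1 (0.783) and Lad1 (0.783). Myo1h was most like A530016L24Rik (0.743), A930033H14Rik (0.705) and Gm1043 (0.683). For Myo1c the highest values were lower, with Vrk1 (0.530), Klhl26 (0.522) and Mocs3 (0.517).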

How the data were processed

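Single-cell RNA-Seq (Smart-Seq, full-length cDNA, no molecular identifiers) of 75 mouse cochlear cells was used. Per the labels and the study's methods, read quality was assessed (FastQC 0.11.9), adapters were trimmed (Trimmomatic 0.39), and alignment to GRCm38 (mm10) used HISAT2 2.1.0. The authors deposited raw read counts per gene from HTSeq 0.10.0. The annotation release and strand setting are not given in the sources used here. A viral element row (0.0254% of counts) was left out.

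The filter (edgeR 4.0.16 in R 4.3.3, minimum count 10 by group) kept 11443 of 55291 genes, and TMM factors were taken over all cells. Group levels are means of CPM over cells. Groups were taken from the sample labels. A mean ratio over 4-fold was counted. For log2 ratios, a group mean under a floor of 3 counts per cell, averaged over its cells, was raised to that floor. Such a log2 ratio is a bound on the difference. For folds, the floor was used only where a group had no read. No ratio was formed where both groups were at or under the floor. Detection means 1 CPM of the total count or more, with exact Clopper-Pearson 95% intervals. Total counts per cell (4264780 to 22934062) limit counting precision and also what is detected. Their medians were 5967735 in OHCs, 7032279 in WT_P60 SCs, 9209094 in OHC-like cells, 11377685 in nascent HCs and 6985617 in SCs failing to become HCs. No 2 cells of a group agreed within sampling noise. The ratio step was tested on simulated data. TPM used GENCODE M21 exon lengths for 53181 genes, 1 of them matched through a synonym. Sequences upstream of start sites came from RefSeq. The genes named are the 9 members, genes of fixed lists past 4-fold for OHC-like cells against either wild-type group, and the 3 genes most like each filtered member. Some results on genes of the marker and light chain lists are not reported here. The members and lists were chosen with earlier results of these data known. The alternatives were other scalings (DESeq2 1.42.0 size factors, total count), medians, mean log2 levels, summed counts, left-out cells, thinning to 4264780 counts, other thresholds, no filter and values within library series. Further steps ran in python 3.11.15 with scipy 1.17.1, pandas 2.3.3, numpy 2.4.6 and matplotlib 3.10.9.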

Additional observations from a re-analysis of the deposited data

How the results depend on the processing

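No paired analysis was possible because the results come from no test and the cell numbers do not pair cells. Of 122 counts of members under other settings, 104 stayed within 1.5 times the reported count. By the median of cells, the members higher than in WT_P60 SCs numbered 1 in OHC-like cells, 1 in nascent HCs and 0 in SCs failing to become HCs, 2 fell short of WT_P60 SCs in OHC-like cells, and 1 was lower in OHC-like cells than in nascent HCs. By the mean of log2(CPM + 1), 1 member was higher in nascent HCs than in WT_P60 SCs, 0 in SCs failing to become HCs, 0 in OHC-like cells than in OHCs and 0 than in nascent HCs. Without the highest cell of each group, 2 members were higher in OHC-like cells than in OHCs and 2 than in nascent HCs. At a 2-fold ratio, 2 were higher in SCs failing to become HCs than in WT_P60 SCs and 2 in OHC-like cells than in OHCs. With no filter, 5 were higher in nascent HCs than in WT_P60 SCs, 2 in SCs failing to become HCs than in WT_P60 SCs and 2 in OHC-like cells than in OHCs, and 1 was lower in OHC-like cells than in nascent HCs, since Myo3b and Myo5b then enter. Within library series, 2 were higher in OHC-like cells than in nascent HCs. The cause of these moves was otherwise not tested. Of 549 ratios of single members, 528 moved by less than the spread over cells. Among ratios past 4-fold, only that of Myo15 in nascent HCs over WT_P60 SCs changed sign. Its log2 ratio was -2.53 or lower without nascent HC 2 and 5.32 or higher without WT_P60 SC 12, both bounds set by the floor. Ratios within 4-fold changed sign too, such as Myo3a in OHC-like cells over OHCs, from 1.70 to -2.86 or lower by the median of cells. Leaving out each cell in turn was added after the data were seen. Each of 135 shares of cells was recomputed, and 132 stayed inside their interval. The lack of reads from Myo5b, or from Myo3a in WT_P60 SCs, is limited by capture from 17 or fewer cells a group. The scaling moved the median log2 ratio of all filtered genes for OHC-like cells over OHCs from 0.56 to 0.31 by total count and 0.49 by DESeq2's size factors, and Myo15 and Myo1h stayed over 4-fold lower under all 8 settings run for them.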

Other observations

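The number of the 9 myosins detected per cell had a median of 5 in OHCs, 3 in WT_P60 SCs, 5 in OHC-like cells, 3.5 in nascent HCs and 4 in SCs failing to become HCs, although different genes made up these sums. After each cell was thinned to 4264780 counts and any read was taken as detection, the medians were 5, 3, 5, 4 and 4. Among the 27 induced hair cells, the 4 with Myo5b all had Myo10 as well, which was detected in 12 of the 27. Within OHCs, Myo6 and Myo15 had a Spearman's rho of 0.642 and a Pearson's r of 0.593 on the log2 scale over 17 cells of one library series, given as a description. It was the highest rho of any member pair in OHCs and is named for that. The rho of this pair was 0.222 in induced hair cells, 0.0793 in WT_P60 SCs and -0.359 in SCs failing to become HCs. In the 27 induced hair cells, Myo7a and Myo6 had a rho of -0.0244.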
